A study of Rattus norvegicus with 4 samples.

Results

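The mitochondrial ribosomal proteins are the protein part of the ribosomes inside mitochondria. They were taken as every array probe whose annotated gene symbol begins with Mrpl, for the large subunit, or Mrps, for the small subunit. These were 67 probes for 61 genes, 38 large and 23 small, among 33849 gene probes on the array. Probes above background in both rats of 1 group or of both groups were kept. These were 64 probes for 59 genes, 37 large and 22 small, among 18664 kept probes and 8985 kept and named genes. The 59 genes are therefore the measured members and not all members. Mrpl12, which forms the flexible stalk of the large subunit, was above background in untreated rat 2 alone, and Mrps18c in no rat. Of the measured genes, 55 were above background in all 4 rats.

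The arrays measured RNA of whole liver from 4 male OLETF rats, which grow obese and develop diabetes as they age. The treated rats drank water with 0.2% thiamine (2 g/L) for 51 weeks, beginning at an age of 4 weeks, and the untreated rats drank water without it. All were 55 weeks old and had fasted for 16 h when the liver was taken. Each group held 8 rats, 2 to a cage, of which 2 were put on arrays, 1 rat to an array with no pooling. The labels do not say whether the arrayed rats shared a cage. Thiamine is vitamin B1, the precursor of a cofactor of mitochondrial enzymes such as pyruvate dehydrogenase. Of 12 hepatocyte markers listed, 10 had probes, and all 10 were above background in all 4 rats. Their summed normalized intensity was 203902 and 217193 in the thiamine rats and 216160 and 208101 in the untreated rats.

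Mitochondria keep a small genome whose messenger RNAs encode core subunits of the respiratory chain and of ATP synthase. The mitochondrial ribosome translates only these messages. Its RNAs come from mitochondrial DNA, whereas all of its proteins are encoded in the nucleus, made in the cytosol and imported. The small subunit reads the message and the large subunit joins the amino acids. Many of the proteins have counterparts in bacterial ribosomes, and others are found only in mitochondria. Liver is rich in mitochondria. The transcription factors NRF1, GABP (which binds ETS motifs) and YY1 are known to act on many nuclear genes for mitochondrial proteins.

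Motifs of these factors were looked for in the promoters of the members, given here by RefSeq on the GRCr8 build as 250 bases before to 50 bases after the start of a gene. A promoter was found for 52 of the 61 genes. The motifs were the NRF1 palindrome, CCGGAAG for ETS factors and AAGATGGCG for YY1, each on both strands. In no member did an ETS match overlap a YY1 match. At least 1 of the 3 was present in 25 of 52 member promoters (48.1%) and in 13.9% of 19005 promoters of protein-coding genes. The NRF1 motif was in 4 member promoters (7.69%, against 1.14% of all), the ETS motif in 17 (32.7%, against 11.2%) and the YY1 motif in 8 (15.4%, against 2.29%). These are counts of letters, not of bound sites.

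The 4 members with the NRF1 motif are shown in full around it, because this motif is rare among all promoters. Capitals mark the palindrome.
Mrpl17, chr1:169575730-169575769, minus strand: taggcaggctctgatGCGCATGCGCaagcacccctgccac
Mrpl32, chr17:55260574-55260613, plus strand: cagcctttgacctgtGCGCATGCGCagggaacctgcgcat
Mrpl44, chr9:88554903-88554942, plus strand: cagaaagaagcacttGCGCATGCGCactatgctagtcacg
Mrps18b, chr20:2842971-2843005, plus strand: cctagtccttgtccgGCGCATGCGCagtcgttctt
Among the genes with the lowest and highest values below, 3 have an ETS match before their start. They are shown to set the promoter beside the measurement, with the match in capitals (CTTCCGG is CCGGAAG on the other strand).
Mrpl57, chr15:36086413-36086449, plus strand: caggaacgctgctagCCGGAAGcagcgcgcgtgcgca
Mrpl52, chr15:31852872-31852908, plus strand: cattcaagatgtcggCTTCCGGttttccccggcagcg
Mrps27, chr2:32474143-32474179, plus strand: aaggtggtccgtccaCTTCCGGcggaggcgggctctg
Mrpl46 and Mrps11 lie head to head. The 250 bases before Mrpl46 (chr1:142117031-142117280, minus strand) and before Mrps11 (chr1:142117014-142117263, plus strand) are almost the same stretch.

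The arrays had between 18176 and 20071 gene probes above background. With all 18664 kept probes tested by limma with Benjamini-Hochberg adjustment, none (0.0%) differed between the groups at an adjusted p under 0.05. An unadjusted p under 0.05 was reached by 1260 probes (6.75%). The values of every array followed the row of the slide on which a spot lay. In untreated rat 1, the median deviation from the mean of the 4 arrays went from 0.16 in rows 1 to 20 to -0.32 in rows 321 to 328, on the log2 scale. The other 3 rats stayed between -0.13 and 0.16. The median difference of all kept probes, thiamine less untreated, therefore went from -0.13 in rows 1 to 20, where 23.9% of probes were higher with thiamine, to 0.17 in rows 321 to 328, where 77.8% were higher. Differences below are given as normalized and again after a smooth trend over slide row and column was subtracted from each array. After this, 0 probes passed the adjusted threshold (0.0%) and 1525 (8.17%) an unadjusted p under 0.05. Where the trend comes from was not tested.

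**Figure D1:**
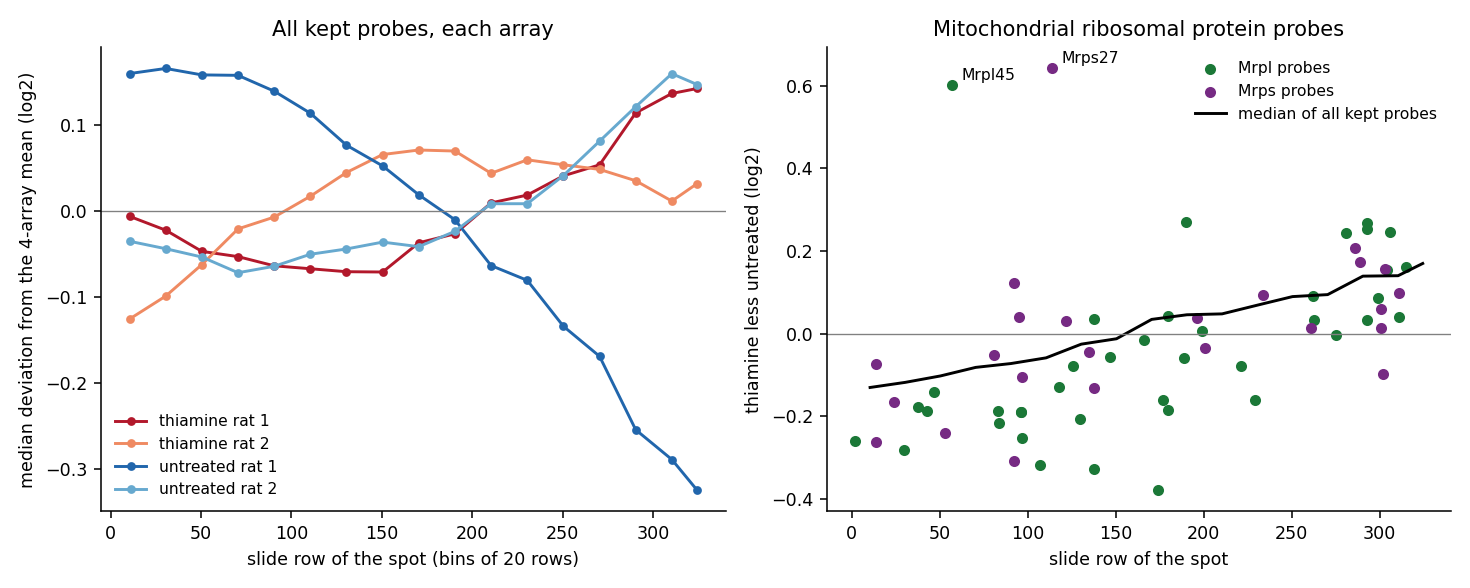
Left, the median log2 deviation from the 4-array mean of all kept probes in bins of 20 slide rows (8 in the last), 1 line per rat; untreated rat 1 runs from 0.16 down to -0.32. Right, the log2 difference (thiamine less untreated) of each of the 64 kept member probes against its slide row, with the median of all kept probes as a line; the members climb with the row as all probes do, and Mrpl45 and Mrps27 stand above the rest.

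Messages of the mitochondrial ribosomal proteins did not separate treated from untreated rats at an adjusted p under 0.05 for any of the 64 probes (limma, Benjamini-Hochberg over 18664 probes; adjusted p between 0.75 and 0.997). As normalized, 27 of 59 genes were higher and 32 lower with thiamine (all genes: 50.6% higher, 49.4% lower). Their median difference was -0.045 on the log2 scale, against 0.003 over all 8985 genes, and the middle of the distribution ran from -0.18 to 0.092. With the trend removed, 16 were higher and 43 lower (all genes: 50.2% and 49.8%), with a median of -0.079 against 0.00042 over all genes. Mrpl45, Mrps2, Mrps27 and Mrps28 were kept through the thiamine arrays only, and as normalized all of them counted as higher. Among the 55 genes above background in all 4 rats, 23 were higher and 32 lower as normalized (median -0.057). With the trend removed, 13 of these were higher and 42 lower (median -0.079). In whole liver, fewer cells of a type and less RNA per cell cannot be told apart.

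Per rat, the median deviation of the 59 genes from their own 4-array means was -0.0090 and -0.054 in the thiamine rats and 0.028 and 0.068 in the untreated rats, on the log2 scale. The groups did not overlap. The gap between their nearest rats, at -0.0090 and 0.028, was close to the spread between rats of a group (pooled SD 0.030). The group means lay further apart than this spread. After trend removal, the values were 0.016 and -0.075 in the thiamine rats and 0.017 and 0.065 in the untreated rats. Thiamine rat 1 and untreated rat 1 were then almost equal, and thiamine rat 2 was the low animal. Without thiamine rat 2 and with the trend removed, 29 genes were higher and 30 lower (median -0.011). Without thiamine rat 1 the trend-removed median was -0.13, without untreated rat 1 it was -0.12, and without untreated rat 2 it was -0.044. As normalized, these medians were -0.031 without thiamine rat 2, -0.079 without thiamine rat 1, -0.083 without untreated rat 1 and -0.035 without untreated rat 2.

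The place of a member on the slide went with its difference. In slide rows 1 to 109, 17 of 19 member genes were lower with thiamine (median -0.19), where the median of all probes was -0.098. In rows 110 to 219, 11 of 18 were lower (median -0.051, all probes 0.0065). In rows 220 to 328, 18 of 22 were higher (median 0.092, all probes 0.11). The authors' deposited value table, which keeps the order of the same scanner values, gave nearly the same medians for the members, -0.19, -0.053 and 0.10. After trend removal, the 3 medians were -0.11, -0.059 and -0.039, and 16 of 19, 12 of 18 and 15 of 22 genes were lower. Across the 64 probes, Pearson's correlation of slide row with the difference was 0.47 as normalized and 0.046 with the trend removed. Without Mrpl45 and Mrps27, these were 0.71 and 0.26. The probes share the same 4 arrays.

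In the large subunit, 15 of 37 genes were higher and 22 lower as normalized, with a median of -0.078, and 10 were higher and 27 lower with the trend removed, with a median of -0.088. On the list of large-subunit proteins found only in mitochondria, which leaves out Mrpl57, 15 were measured. They were 4 higher and 11 lower (median -0.13), and with the trend removed 3 higher and 12 lower (median -0.090). The 21 with bacterial counterparts were 12 higher and 9 lower (median 0.035), and with the trend removed 8 higher and 13 lower (median -0.071). In the small subunit, 12 of 22 genes were higher and 10 lower (median 0.014), and with the trend removed 6 were higher and 16 lower (median -0.048). Its 10 genes with bacterial counterparts and its 8 found only in mitochondria had trend-removed medians of -0.068 and -0.041. These lists leave out Mrps18a, Mrps18b, Mrps28 and Mrps30. Mrps2, Mrps27 and Mrps28, all higher as normalized, were kept through the thiamine arrays only, as was Mrpl45 in the large subunit. Both rats of a group lay above both of the other for 4 higher and 22 lower member genes as normalized. Over all genes, such separation was found for 18.5% higher and 19.0% lower. The counts were 4 and 17 with the trend removed (all genes: 20.5% and 20.2%).

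**Figure D2:**
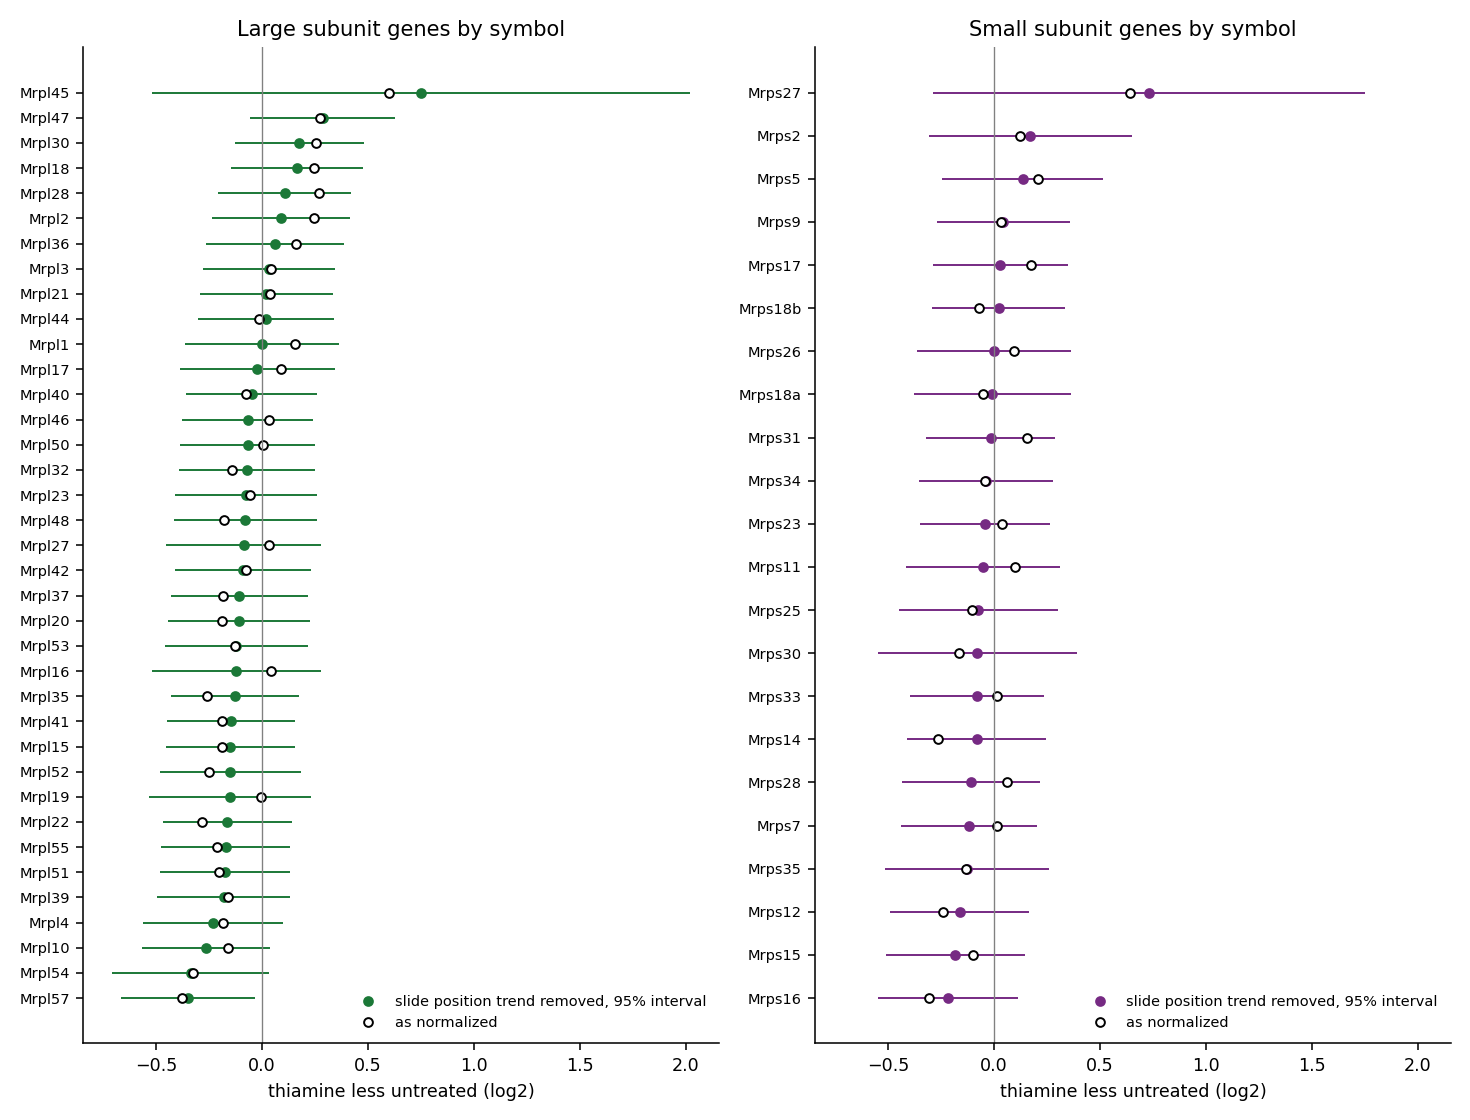
Difference of each measured member gene, thiamine less untreated, on the log2 scale, with genes of the large subunit on the left and of the small subunit on the right. Filled points are with the slide trend removed and carry limma's 95% interval, open points are as normalized; Mrpl57, from -0.67 to -0.032, has the only interval that leaves out 0.

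Mrpl57, a large-subunit protein found only in mitochondria, was the lowest member. Its normalized log2 intensity was 9.23 and 9.15 in the thiamine rats and 9.61 and 9.53 in the untreated rats. Both thiamine rats lay below both untreated rats. The log2 difference was -0.38 ± 0.18 (moderated SE, n = 2 and 2 rats; limma adjusted p = 0.75), with a 95% interval from -0.77 to 0.013. Trend removal left -0.35 (adjusted p = 0.561), and Mrpl57 was then the only member at an unadjusted p under 0.05, 1 of 59 genes against 3.59% lower and 4.6% higher among all genes. A second Mrpl57 probe, in slide row 299 against 174 for the first, gave 0.086 as normalized and 0.0032 with the trend removed. The low value was therefore seen with 1 of 2 probes.

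Mrpl54, also found only in mitochondria, had log2 intensities of 10.05 and 9.84 with thiamine and 10.30 and 10.24 without. Its log2 difference was -0.33 ± 0.18 (limma adjusted p = 0.811) and -0.34 with the trend removed, so the trend hardly touched it. Mrpl22, which lines the exit of the tunnel through which the new protein leaves, had 11.18 and 11.07 with thiamine and 11.52 and 11.29 without. Its difference of -0.28 became -0.16 with the trend removed. For Mrpl35 the difference went from -0.26 to -0.13 and for Mrpl52 from -0.25 to -0.15. These 3 genes lie in slide rows 30, 2 and 97, where the median of all probes was lower with thiamine. Without untreated rat 1, Mrpl22 was at -0.16 and Mrpl35 at -0.17 as normalized. Mrpl57, Mrpl54, Mrpl22, Mrpl35 and Mrpl52 kept groups without overlap in both forms of the data.

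Of the small subunit, Mrps16 had log2 intensities of 11.51 and 11.36 with thiamine and 11.78 and 11.71 without, a difference of -0.31 ± 0.18 (limma adjusted p = 0.822). Mrps14 differed by -0.26 and Mrps12, a protein of the decoding centre, by -0.24. Trend removal gave -0.22 for Mrps16, -0.083 for Mrps14 and -0.16 for Mrps12. The groups still lay apart for Mrps16 and Mrps12 but overlapped for Mrps14. All 3 have bacterial counterparts.

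The groups lay apart upwards for 4 genes, all of the large subunit. Mrpl47, which sits at the tunnel exit, had log2 intensities of 9.30 and 9.57 with thiamine and 9.10 and 9.24 without. Both thiamine rats were above both untreated rats, but thiamine rat 1 exceeded untreated rat 2 by little. Its difference was 0.27 ± 0.19 (limma adjusted p = 0.846) and 0.29 with the trend removed. Without thiamine rat 2 it was 0.14. The other 3 were Mrpl28 (0.27), Mrpl30 (0.25) and Mrpl18 (0.24), the last a protein of the central protuberance at the top of the subunit. They lie in slide rows 293, 293 and 281, where the median of all probes was higher with thiamine, and their differences were 0.11, 0.18 and 0.16 with the trend removed. Without untreated rat 1 they were 0.16, 0.10 and 0.11 as normalized, and without untreated rat 2 they were 0.37, 0.41 and 0.37. Mrpl18 was at 0.15 without thiamine rat 1. Mrpl10, which holds the stalk that Mrpl12 forms, lies in row 229 and had a difference of -0.16 as normalized and -0.27 with the trend removed.

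The highest and most uncertain members each rested on 1 rat. Mrpl45, which anchors the ribosome to the inner mitochondrial membrane beside the tunnel exit, had log2 intensities of 9.28 and 9.11 with thiamine and 9.71 and 7.48 without. The spot of untreated rat 2 was the low one and carried quality flags, including those for contamination and for a level near background. The difference was 0.60 ± 0.51 (limma adjusted p = 0.887). With flagged spots set missing it was -0.52, and without untreated rat 2 it was -0.51. Without untreated rat 1 it was 1.73, with an adjusted p of 0.017.

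Mrps27, which binds RNA in the small subunit, had log2 intensities of 8.71 and 7.23 with thiamine and 7.18 and 7.47 without. Thiamine rat 1 alone was high, and both untreated rats were near background. The thiamine rats were therefore set against a ceiling for the untreated rats. For each untreated array this was the spot's own value or the array's lowest signal above background, whichever was larger. The mean of the thiamine rats was 1.52-fold this level, rat 1 alone 2.54-fold and rat 2 alone 0.913-fold, so rat 2 did not exceed it. Mrps27 was kept through the thiamine arrays only. The fitted difference was 0.64 ± 0.37 (limma adjusted p = 0.816) and -0.095 without thiamine rat 1. A second Mrps27 probe, in the next slide row, was not above background on both arrays of either group. Its log2 intensities were 7.19 and 6.97 with thiamine and 7.35 and 7.19 without. Mrps2 and Mrps28, both close to background, were each below it in untreated rat 1 and differed by 0.12 and 0.060. They differed by 0.17 and -0.11 with the trend removed.

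Of the 3 paralogues named after the bacterial protein S18, Mrps18a and Mrps18b were measured. The log2 intensities of Mrps18a were 9.81 and 9.77 with thiamine and 10.11 and 9.57 without, a difference of -0.051. Those of Mrps18b were 10.98 and 10.83 with thiamine and 11.13 and 10.82 without, a difference of -0.073, or 0.022 with the trend removed. The untreated rats spanned the treated ones for both. Mrps30, which like Mrps18a sits in the large subunit despite its name, had 10.73 and 10.12 with thiamine and 10.57 and 10.61 without, a difference of -0.17. Thiamine rat 2 set this value, and without it the difference was 0.14.

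There were 5 members with a second kept probe, and 2 of these pairs had opposite signs. The pair of Mrpl57 was the widest apart, by 0.47. For Mrpl40, a protein of the central protuberance, the probe in row 107 gave -0.32 and the brighter one in row 126 gave -0.078, which were -0.30 and -0.049 with the trend removed. The probes of Mrpl50 gave -0.059 and 0.0058, those of Mrps15 -0.035 and -0.099, and those of Mrps9 0.040 and 0.031. The gap between the probes of Mrpl57 and of Mrpl40 exceeded the median SE of a single probe's difference (0.19). The SE of a gap between 2 probes is another quantity and was not computed.

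Large and small subunit genes were compared within each rat. The mean deviation of the 37 large-subunit genes less that of the 22 small-subunit genes was -0.074 and 0.029 in the thiamine rats and 0.068 and -0.023 in the untreated rats, on the log2 scale. The rats of the groups interleaved. The group difference was -0.045, less than the pooled SD between rats of a group (0.069). After trend removal, the rats had -0.061, 0.020, 0.056 and -0.015, a group difference of -0.041 (pooled SD 0.054). Counting Mrps18a and Mrps30 as large gave group differences of -0.060 as normalized and -0.044 with the trend removed. Medians in place of means gave -0.0020 as normalized, with rats interleaved, and -0.0084 with the trend removed, where the thiamine rats (-0.0095 and -0.0012) lay just below the untreated rats (0.0024 and 0.0038; pooled SD 0.0042). The rats no longer interleaved when Mrpl45 and Mrps27, whose values each rest on 1 rat, were left out, a choice made after seeing the data. As normalized, the thiamine rats then had -0.038 and 0.0052 and the untreated rats 0.027 and 0.0057, a group difference of -0.033 (pooled SD 0.024). With the trend removed they had -0.023 and -0.0053 against 0.013 and 0.015, a difference of -0.028 (pooled SD 0.0089). Leaving out genes picked for a gap between rats of a group shrinks that spread by itself. The spread is therefore no yardstick for these differences. As normalized, the nearest rats, at 0.0052 and 0.0057, almost met. A planned filter kept only the 55 genes above background in every rat, which also leaves out Mrpl45 and Mrps27. The group difference was then -0.020 as normalized, smaller than the -0.033 from the choice made after seeing the data. With 2 rats against 2, no exact permutation test of such a value can pass a threshold of 0.05, and none was run.

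**Figure D3:**
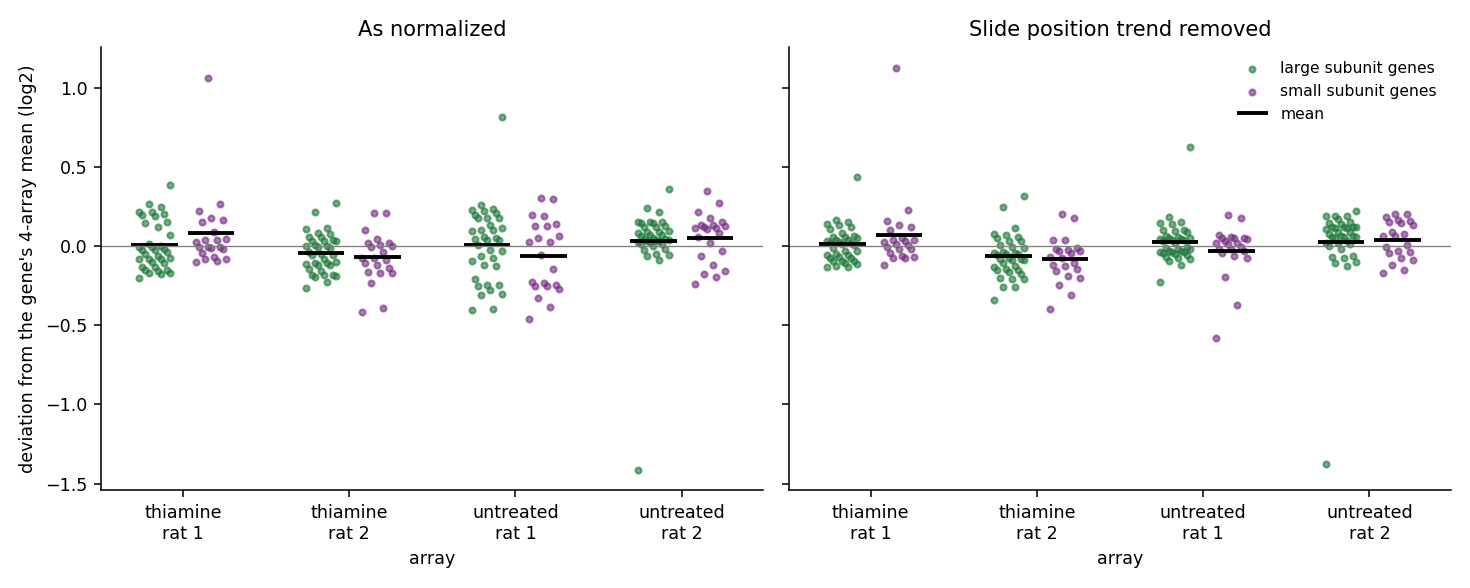
Log2 deviation of each measured member gene from its own 4-array mean, by rat, for 37 large and 22 small subunit genes, as normalized (left) and with the slide trend removed (right); black bars are means. The large less small means, -0.074 and 0.029 with thiamine and 0.068 and -0.023 without, interleave, and the points far from 0 are Mrps27 in thiamine rat 1 and Mrpl45 in the untreated rats.

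For the ETS and NRF1 motifs, the order of genes with and without a match turned when the slide trend was removed. As normalized, 16 measured genes with an ETS match had a median difference of -0.054 and 34 without one -0.0054, and with the trend removed -0.047 and -0.070. The 4 genes with the NRF1 motif had -0.045 and 46 without it -0.023 as normalized, and -0.0034 and -0.076 with the trend removed. For YY1, 8 genes with a match had -0.023 and 42 without one -0.037, and -0.069 and -0.073 with the trend removed. These differences were not tested. Mrpl46 and Mrps11, which share a stretch before their starts, had 0.032 and 0.097 as normalized and -0.069 and -0.054 with the trend removed.

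Mrpl38 had a kept probe without that symbol in the platform annotation, so the rule left it out. Its difference was 0.067 as normalized and 0.16 with the trend removed. Ribosomal proteins of mitochondria that carry other symbols, also outside the rule, were measured for 5 genes. Gadd45gip1, a large-subunit protein also named for binding a stress protein, had log2 intensities of 10.99 and 10.77 with thiamine and 11.33 and 11.32 without. Both thiamine rats were lower, with a difference of -0.44 ± 0.18 (limma adjusted p = 0.672) and of -0.29 with the trend removed. Its probe is in row 14. Dap3, a GTP-binding protein of the small subunit, differed by -0.16, and Ptcd3, Aurkaip1 and Chchd1 by 0.12, -0.039 and -0.032. These 4 were at -0.22, 0.056, -0.077 and 0.0034 with the trend removed.

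The other parts of mitochondrial translation were counted from fixed lists. Of 14 mitochondrial aminoacyl-tRNA synthetases, which charge transfer RNAs with amino acids, 3 were higher and 11 lower as normalized (median -0.091), and 2 higher and 12 lower with the trend removed (median -0.099). At an unadjusted p under 0.05, 2 were lower, against 3.06% of all genes. These were Cars2, for cysteine (-0.58 ± 0.20, limma adjusted p = 0.539), and Pars2, for proline (-0.48 ± 0.20, limma adjusted p = 0.683). Both kept an unadjusted p under 0.05 with the trend removed. Of 7 translation factors, 5 were higher and 2 lower (median 0.078), and 4 higher and 3 lower with the trend removed (median 0.091). The ribosome recycling factor Mrrf differed by -0.29, or -0.17 with the trend removed. Of 20 genes for ribosome assembly and ribosomal RNA modification, 11 were higher and 9 lower, and 9 higher and 11 lower with the trend removed. Mrm1, a methyltransferase of the large ribosomal RNA, differed by 0.57 ± 0.20 (limma adjusted p = 0.569), and by 0.46 with the trend removed. It was the only gene of this list at an unadjusted p under 0.05 as normalized, where 3.83% of all genes were higher at that threshold. With the trend removed, 1 gene of the list was higher and 2 lower at that threshold (all genes: 4.6% and 3.59%). Rbfa, an assembly factor of the small subunit, differed by -0.33, and by -0.46 with the trend removed.

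Of 20 genes that maintain mitochondrial DNA and RNA, 10 were higher and 10 lower, and 9 higher and 11 lower with the trend removed. Tfam, which packages mitochondrial DNA and starts its transcription, differed by 0.29, or 0.20 with the trend removed, and the mitochondrial RNA polymerase Polrmt by -0.025, or 0.10 with the trend removed. Among 9 regulators of mitochondrial biogenesis, 7 were higher and 2 lower as normalized (median 0.15), and 5 higher and 4 lower with the trend removed (median 0.035). The Nrf1 message itself was above background in 2 of 4 rats, both with thiamine, and was kept through that group only. It is among the higher genes of this list. Nrf1 had log2 intensities of 7.45 and 7.55 with thiamine and 7.30 and 7.12 without. Its difference was 0.29 as normalized and 0.45 with the trend removed. Gabpa, the DNA-binding part of GABP, differed by 0.21 (0.31 with the trend removed), Esrra by 0.18 (0.16) and the coactivator Ppargc1a by 0.016 (-0.074). None of these had an adjusted p under 0.05.

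Larger sets gave a scale for the members. Of 60 nuclear genes for subunits of oxidative phosphorylation, which assemble with the products of mitochondrial ribosomes, 21 were higher and 39 lower as normalized (median -0.068). With the trend removed, 15 were higher and 45 lower (median -0.12). Of 39 ribosomal protein genes of the cytosol, 12 were higher and 27 lower (median -0.047), and with the trend removed 7 were higher and 32 lower (median -0.077). The mitochondrial ribosomal proteins, at -0.045 and -0.079, lay beside both sets. The lists rest on the same 4 rats, and the difference between them was not tested.

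Kupffer cells are macrophages that live in the liver, and their markers varied between the rats. Of 14 listed, 11 had probes and 10 were kept, and all 10 were higher with thiamine (median 0.62, and 0.59 with the trend removed). Of these, 7 had an unadjusted p under 0.05 (3.83% of all genes higher), and 5 with the trend removed (4.6%). Their summed normalized intensity was 30882 and 21492 in the thiamine rats and 21015 and 13632 in the untreated rats. Of 10 endothelial markers, 7 were measured and 6 were higher (median 0.28, and 0.24 with the trend removed), with sums of 6357 and 5689 against 4621 and 4425. The highest Kupffer cell sum was in thiamine rat 1 and the lowest in untreated rat 2. The lowest member median was in thiamine rat 2 and the highest in untreated rat 2. The part of these cells in the members' values was not tested.

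**Figure D4:**
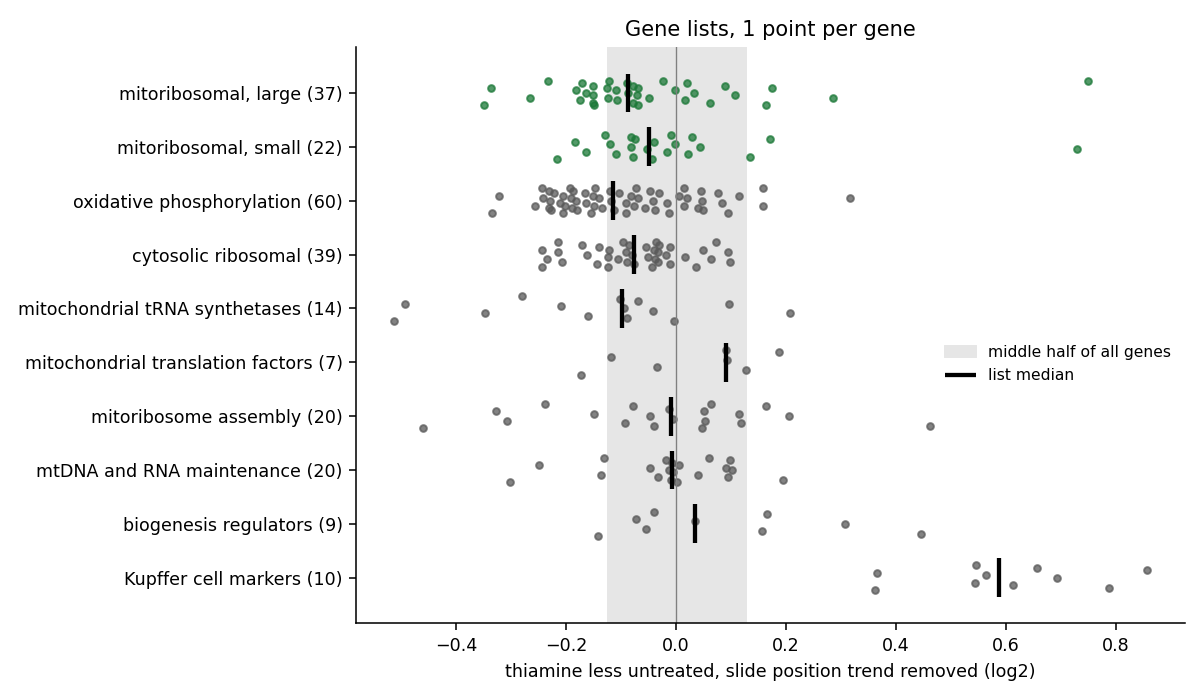
Log2 difference, thiamine less untreated with the slide trend removed, of each measured gene of the lists named at the left, with the number of genes in brackets. Black bars are list medians and the grey band holds the middle of all 8985 genes, from -0.12 to 0.13. The band shows the spread of single genes and is no yardstick for a list median. The members' medians are -0.088 (large) and -0.048 (small), and the Kupffer cell median is 0.59.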

How the data were processed

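CodeLink rat arrays with 1 colour gave 4 reports, each of 1 rat, and the series has a value table. Per the file headers, the reports give the intensity of a spot and its local background on a linear scale, with a quality flag. The deposited value table holds intensity values that keep the order of the scanner values, with column medians between 147.48 and 147.51; the way in which the authors made it is not stated in the sources used here. Groups and replicate numbers are those of the labels, which call the samples individual rats.

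Background was corrected with normexp (offset 50), 1280 control features were left out, and log2 values of 33849 probes were quantile normalized. Masked spots, 55 to 67 per array, were missing, and contaminated spots (1.49% to 7.49%) were kept. The groups were compared in R 4.3.3 by limma 3.58.1 with lmFit and then eBayes; tests were two-sided and p-values were adjusted by Benjamini-Hochberg over 18664 kept probes, with 10.8 degrees of freedom after moderation and a median SE of 0.19. The number of arrays, 4, limits the precision. In simulated data, the fit was tested on known changes. A gene is its brightest kept probe. The slide trend was removed by loess (span 0.3) over row, then column, of each array's deviation from the mean of the arrays; this was chosen after seeing the data. The members and lists were chosen with earlier results of these data known. Named members were those past the threshold, up to 8 rises and 8 falls with groups apart, those below background in a rat of 1 group, pairs of probes of opposite sign, and some fixed by role; other lists name up to 4 genes with the smallest p and some fixed regulators. Mrpl10, Mrpl40, Mrpl46, Mrpl50, Mrps9, Mrps11 and Mrps15 were added after their values were seen. Replicate numbers did not pair the rats (correlation of deviations -0.074). Gene symbols are those of the platform annotation, and all 67 member probes matched RefSeq (GRCr8) by gene identifier. No protein or probe sequences were used here. Alternatives covered background correction, scaling, filters, flagged spots, the deposited table, a replicate block, each rat left out, the gene summary and the slide trend.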

Additional observations from a re-analysis of the deposited data

How the results depend on the processing

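The replicate block, in which the numbers are taken as pairs although the rats share only a number, gave 126 calls among all probes and 0 among the members; with the trend removed it gave a member median of -0.079. Leaving out 1 rat at a time gave 1 to 50 calls among all probes and 0 to 1 among member probes, a member median of -0.083 to -0.031, and a large less small difference of -0.097 to 0.0064. With the trend removed, the ranges were 0 to 323 (323 without untreated rat 1, 92 without untreated rat 2), 0 to 1, -0.13 to -0.011 (-0.12 without untreated rat 1) and -0.083 to -0.00026. The member called without untreated rat 1 was Mrpl45. Leaving out 1 rat gave, for Mrpl45, -0.51 to 1.73, for Mrps27 -0.095 to 1.37, for Mrps2 -0.070 to 0.32, for Mrps28 -0.24 to 0.36, for Mrps18a -0.32 to 0.22, for Mrps18b -0.23 to 0.086 and for Mrps30 -0.47 to 0.14. Flagged spots set missing gave -0.52 for Mrpl45. With the trend removed, the member median was -0.079, Mrps28 was at -0.11 and Mrps18b at 0.022. Median scaling gave 29 members higher and 30 lower, with a member median of -0.019. Where a lone rat stood for a group, its spread was taken from the other group. The causes were not tested.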
